A study of Homo sapiens with 6 samples.

Results

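The 10 genes described here encode Eph receptors (EPHA1, EPHA2, EPHA4, EPHB2, EPHB3, EPHB4 and EPHB6) and their membrane-bound ligands, the ephrins (EFNA1, EFNB1 and EFNB2). They were chosen by gene symbol from the 26475 genes of the deposited table, with earlier results of these data known. All 10 passed the filter of at least 1 TPM in at least 2 libraries. Levels are in TPM, each gene's share of a library's transcripts after correction for length. Messenger RNA was sequenced in 6 libraries of human lung cancer cells, 2 each of PC9-AMG, PC9-BrM4 and PC9, and all 3 groups were cultured in MGS, so no group without that culture is compared. PC9 is an established EGFR-mutant line from a lung adenocarcinoma, and the other names mark derivatives of it. The labels give no other allele or agent and expand none of AMG, BrM4 and MGS. Each library's description carries an unexplained "mix", so what was mixed, if anything, is unknown. Nothing in them tells if a derivative is 1 clone, or if a group's 2 libraries came from different dishes. The p-values therefore weigh differences against the spread between libraries, which may be technical.

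Eph receptors are the largest family of receptor tyrosine kinases, and they bind ephrins on the surface of neighbouring cells. Ephrin-A ligands are held by a glycolipid anchor and bind mainly EphA receptors, whereas ephrin-B ligands span the membrane and bind mainly EphB receptors; EphA4 binds both classes. Signals run forward into the receptor cell and in reverse into the ligand cell, and they set cell repulsion, adhesion and tissue boundaries. In lung carcinoma cells the best studied member is EphA2, which restrains or promotes migration depending on whether ephrin is bound.

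Tests used limma on log2(TPM + 1) over 14627 genes, and "rose", "fell", "higher" or "lower" as a verdict means an adjusted p (Benjamini-Hochberg, over all these genes) under 0.05. The libraries correlated at 0.986 to 0.990 within groups and 0.967 to 0.981 between groups (Pearson, across genes, which are not independent replicates). The files used give no read counts, so the number of reads is unknown and values carry no counting interval. Coverage at 1 TPM ran from 0.606 to 0.822 reads per base over the libraries, and was highest in PC9-AMG. EPHA2, for example, had a coverage of 44.5 at 54.1 TPM in PC9-AMG library 1. It had 35.7 at 56.1 TPM in PC9-BrM4 library 1 and 34.8 at 52.4 TPM in PC9 library 1. The part of this in the differences between groups was not tested. The per-base coverage of the 10 genes ran from 1.60 for EPHA4 to 69.4 for EFNA1. Epithelial genes were high in every library, with EPCAM between 634 and 856 TPM. The lung-specific markers were low or absent: SFTPB was listed at 0 in all 6 libraries, NKX2-1 reached 0.283 TPM and NAPSA 1.69 TPM. Among markers of other cells, GFAP, S100B and FABP7 of astrocytes and AIF1, CX3CR1 and P2RY12 of microglia were listed at 0 in all 6 libraries. The astrocyte list (2 of 8 genes passed the filter) summed to 34.0 and 30.3 TPM in PC9-AMG, 23.5 and 20.7 TPM in PC9-BrM4, and 23.7 and 22.4 TPM in PC9, mostly ALDH1L1 (18.3 to 32.8 TPM), with SLC1A3 at up to 3.44 TPM. The microglia list (3 of 7 passed) summed to 245.9 and 224.5 TPM in PC9-AMG, 181.004 and 166.1 TPM in PC9-BrM4, and 232.3 and 225.9 TPM in PC9. Its expressed genes were CD68 (149.6 to 229.5 TPM), CSF1R (6.81 to 9.96 TPM) and ITGAM (3.36 to 8.54 TPM). The fibroblast list (1 of 6 passed, COL1A1 at 8.92 to 17.1 TPM, with LUM at 0) summed to 15.6 and 9.30 TPM in PC9-AMG, 17.9 and 16.1 TPM in PC9-BrM4, and 9.38 and 11.2 TPM in PC9. Of the oligodendrocyte list only MBP was above 0 (20.2 to 26.8 TPM), and the neuron list (1 of 5 passed) summed to at most 1.28 TPM, with SNAP25, STMN2 and NEFL at 0. The microglia sum was thus below and the fibroblast sum above PC9 in PC9-BrM4, without overlap, and in PC9-AMG the astrocyte sum was above and MBP below PC9. The neuron and endothelial sums were below PC9 in both derivatives. The part of these genes in the results was not tested.

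The upstream sequence is shown for the genes whose levels separated the groups. Each run is the 5′ to 3′ sequence before the RefSeq start site (GRCh38.p14), cut to the longest stretch outside that gene's own GENCODE exons. Exons of other genes were not checked. Capitals mark GC boxes (GGGCGG or its reverse complement), the core motif of the Sp1 factor.
EPHA4 (chr2:221574203-221574452, minus strand): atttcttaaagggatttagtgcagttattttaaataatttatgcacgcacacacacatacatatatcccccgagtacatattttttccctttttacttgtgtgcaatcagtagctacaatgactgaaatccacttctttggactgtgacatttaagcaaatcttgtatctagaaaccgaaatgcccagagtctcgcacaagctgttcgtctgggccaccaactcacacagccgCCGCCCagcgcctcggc
EFNB1 (chrX:68828771-68828996, plus strand): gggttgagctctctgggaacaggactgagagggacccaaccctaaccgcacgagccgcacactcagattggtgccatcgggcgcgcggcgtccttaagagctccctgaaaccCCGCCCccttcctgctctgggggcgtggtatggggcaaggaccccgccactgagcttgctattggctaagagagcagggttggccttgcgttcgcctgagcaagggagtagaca
EFNB2 (chr13:106535663-106535912, minus strand): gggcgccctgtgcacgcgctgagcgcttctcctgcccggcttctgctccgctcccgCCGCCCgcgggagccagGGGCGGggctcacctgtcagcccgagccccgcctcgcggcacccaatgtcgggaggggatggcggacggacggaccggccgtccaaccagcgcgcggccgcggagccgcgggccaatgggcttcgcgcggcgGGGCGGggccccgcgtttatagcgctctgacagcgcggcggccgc
The RefSeq start site of EPHA4 coincides with the 5′ end of the gene in the files, that of EFNB1 lies 24 bases from it and that of EFNB2 622 bases; the window of EFNA1 lies in an exon of another of its transcripts and is not shown. All 10 genes were found in the RefSeq table. In the 250 bases before the start site nearest to the gene's 5′ end in the files, all 10 held a GC box on either strand (1 to 5 matches), as did 42.6% of the 35093 upstream windows of the table. For EPHB6 that start site lies 7742 bases inside the gene as listed in the files, so its window may not be the promoter. The AP-1 motif TGANTCA and the hypoxia core ACGTG were in 0 of the 10, against 6.57% and 18.5% of all windows. The TEAD motif GGAATG was in EPHA2 alone and TATAAA in EFNB2 alone (11.9% and 10.7% of all windows). None of these motifs is contained in another. The window of EPHA4 had the lowest GC content of the 10 (43.2%), that of EPHB2 the highest (84.8%), and the median of all windows was 58.0%.

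In PC9-BrM4 the EphA4 gene rose about 4-fold over PC9. With the settings above, the other 6 receptor genes were not called in any of the 3 comparisons. With some other settings, given below, EPHA1 was called in PC9-AMG against PC9-BrM4 and EPHB6 in PC9-AMG against PC9. The ephrin genes EFNA1 and EFNB1 fell in both derivatives, to about 0.7 and 0.6 of the PC9 level. EFNB2 fell in PC9-AMG and was also lower there than in PC9-BrM4. In PC9-BrM4 against PC9, 1 of the 10 genes rose and 2 fell (9.89% of all tested genes rose and 6.45% fell; 16.3% were called either way). In PC9-AMG against PC9, 0 rose and 3 fell (3.67% and 3.82% of tested genes; 7.49% either way). In PC9-AMG against PC9-BrM4, 0 were higher and 2 lower (6.31% and 12.3%; 18.6% either way). Both comparisons with PC9 use the same PC9 libraries, so a high or low PC9 library moves both together.

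**Figure D1:**
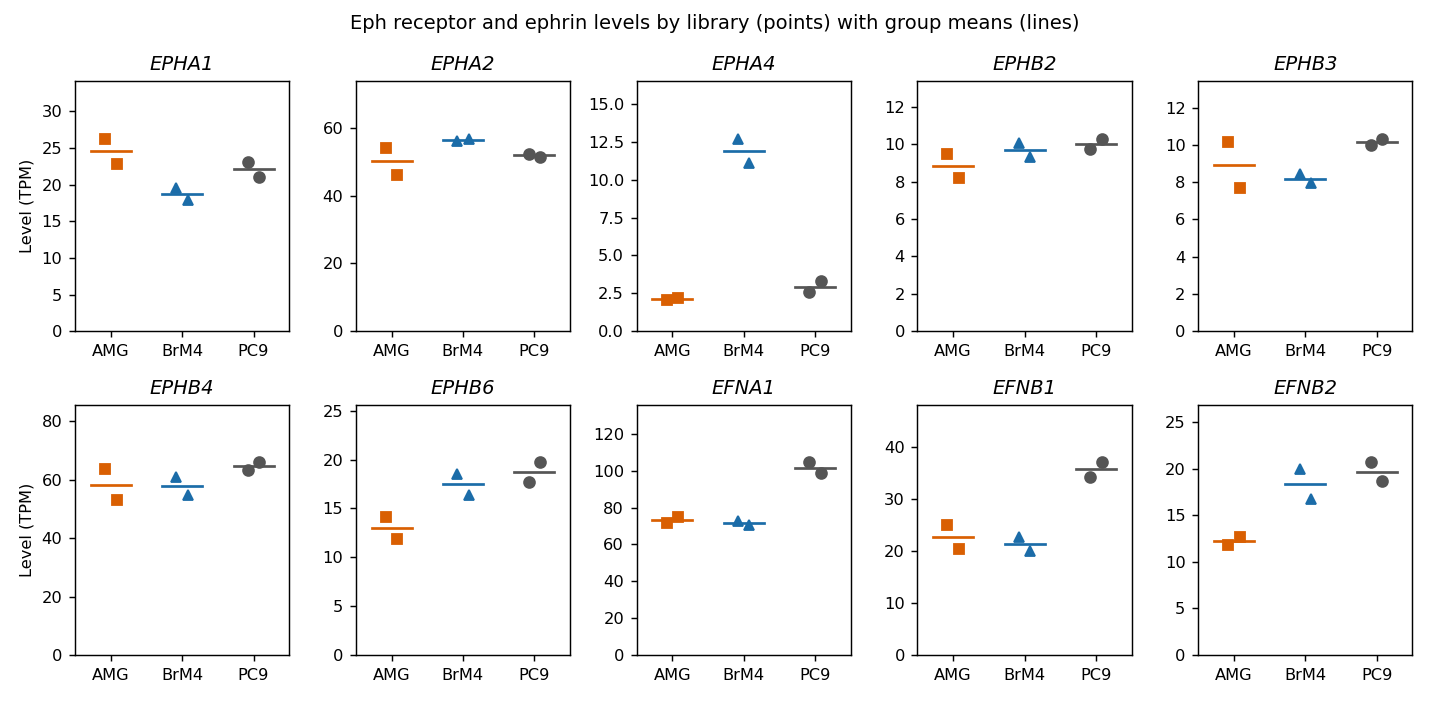
Level in TPM (y axis, from 0) of each of the 10 genes in the libraries of PC9-AMG, PC9-BrM4 and PC9 (x axis); points are libraries and lines are means of 2. EPHA4 stands at 12.7 and 11.1 TPM in PC9-BrM4, far above both other groups, and EFNA1 and EFNB1 lie lower in both derivatives than in PC9.

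EPHA4, on the minus strand of chromosome 2 (221418027 to 221574202, hg38 as in the files), encodes the receptor that binds ephrins of both classes and is best known from axon guidance. It had 2.08 and 2.16 TPM in PC9-AMG, 12.7 and 11.1 TPM in PC9-BrM4, and 2.57 and 3.29 TPM in PC9. Both PC9-BrM4 libraries were above every other library, and the PC9-AMG libraries were below both PC9 libraries. Against PC9, PC9-BrM4 was higher by 1.72 on the log2(TPM + 1) scale (SE 0.19, adjusted p = 0.000304; higher in 2 of 2 libraries), a ratio of mean TPM of 4.06. PC9-AMG was lower than PC9-BrM4 by 2.04 (log2 difference -2.04, SE 0.19, adjusted p = 0.000134). The difference of PC9-AMG from PC9 was not called (-0.33, 95% interval -0.75 to 0.09, adjusted p = 0.310). Because the level outside PC9-BrM4 is low, the added 1 TPM makes these log2 differences smaller than those of the TPM themselves. The distance between the highest and lowest group mean of EPHA4 exceeded that of 99.1% of the tested genes.

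EPHA4 also took a larger share of receptor transcripts in PC9-BrM4. It made up 1.12% and 1.39% of the summed TPM of all 14 receptor genes in PC9-AMG, 6.63% and 6.19% in PC9-BrM4, and 1.39% and 1.76% in PC9. EPHA4 had the lowest level of the 7 receptors in PC9-AMG and PC9, while in PC9-BrM4 it lay above EPHB2 and EPHB3. The ranges of EPHA4 and EPHB2 there did not overlap. In bulk RNA, fewer cells that express a gene and less RNA per cell cannot be told apart, so neither can a change in all PC9-BrM4 cells and one in some of them.

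EPHB4 and EPHA2 were the most abundant receptors in every group. EPHB4, the receptor of ephrin-B2 best known from veins, had 63.5 and 53.0 TPM in PC9-AMG, 60.8 and 54.9 TPM in PC9-BrM4, and 63.4 and 65.9 TPM in PC9. The PC9-AMG libraries differed from each other by more than the group means did. EPHA2 had 54.1 and 46.0 TPM in PC9-AMG, 56.1 and 56.8 TPM in PC9-BrM4, and 52.4 and 51.5 TPM in PC9. PC9-BrM4 was above PC9 without overlap, by a log2 difference of 0.12 that was not called (95% interval -0.13 to 0.37, adjusted p = 0.524). EPHA2 held between 27.6% and 31.7% of receptor TPM in all 6 libraries, and EPHB4 between 30.7% and 35.3%. The EPHB4 and EPHA2 ranges overlapped in PC9-AMG and in PC9-BrM4 but not in PC9.

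EPHA1, a receptor of epithelia, is overlapped on the opposite strand by EPHA1-AS1, which was at 0.0644 to 0.212 TPM; the strand setting of the counting is not stated. EPHA1 had 26.2 and 22.8 TPM in PC9-AMG, 19.6 and 17.9 TPM in PC9-BrM4, and 23.0 and 21.1 TPM in PC9. PC9-AMG lay above PC9-BrM4 without overlap, but the difference was not called (log2 difference 0.37, 95% interval 0.07 to 0.67, adjusted p = 0.0805). The median of all tested genes was at -0.13 in that comparison, against 0.09 for PC9-BrM4 over PC9 and -0.05 for PC9-AMG over PC9. Relative to it the EPHA1 difference was 0.50, and EPHA1 was called higher with median centring (0.54, adjusted p = 0.0127), quantile normalization (0.0171) or FPKM (0.0238).

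EPHB6, a receptor without kinase activity, had 14.1 and 11.8 TPM in PC9-AMG, 18.5 and 16.4 TPM in PC9-BrM4, and 17.7 and 19.7 TPM in PC9. Both PC9-AMG libraries were below the other 4. The difference from PC9 was not called (log2 difference -0.50, 95% interval -0.83 to -0.17, adjusted p = 0.0694), nor was that from PC9-BrM4 (-0.40, adjusted p = 0.0834). The call from PC9 was gained only with the filter at 5 TPM, which tests fewer genes (adjusted p = 0.0443). The files list EPHB6 a second time on an alternate contig of chromosome 7, at 0 in every library.

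EPHB2 and EPHB3, the receptors that position cells along intestinal crypts, were lower in level and varied little. EPHB2 had 9.46 and 8.21 TPM in PC9-AMG, 10.1 and 9.33 TPM in PC9-BrM4, and 9.78 and 10.3 TPM in PC9. EPHB3 had 10.1 and 7.67 TPM in PC9-AMG, 8.42 and 7.95 TPM in PC9-BrM4, and 9.9994 and 10.3 TPM in PC9. The PC9-BrM4 libraries of EPHB3 were below both PC9 libraries, by a log2 difference that was not called (-0.28, 95% interval -0.66 to 0.09, adjusted p = 0.294). For EPHB2, EPHB4 and EPHA2 the highest and lowest group means were closer together than in all but 13.1% to 15.4% of the tested genes. Their intervals against PC9 reached no further than -0.51 and 0.37, which bounds a change but does not show that the groups were alike.

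**Figure D2:**
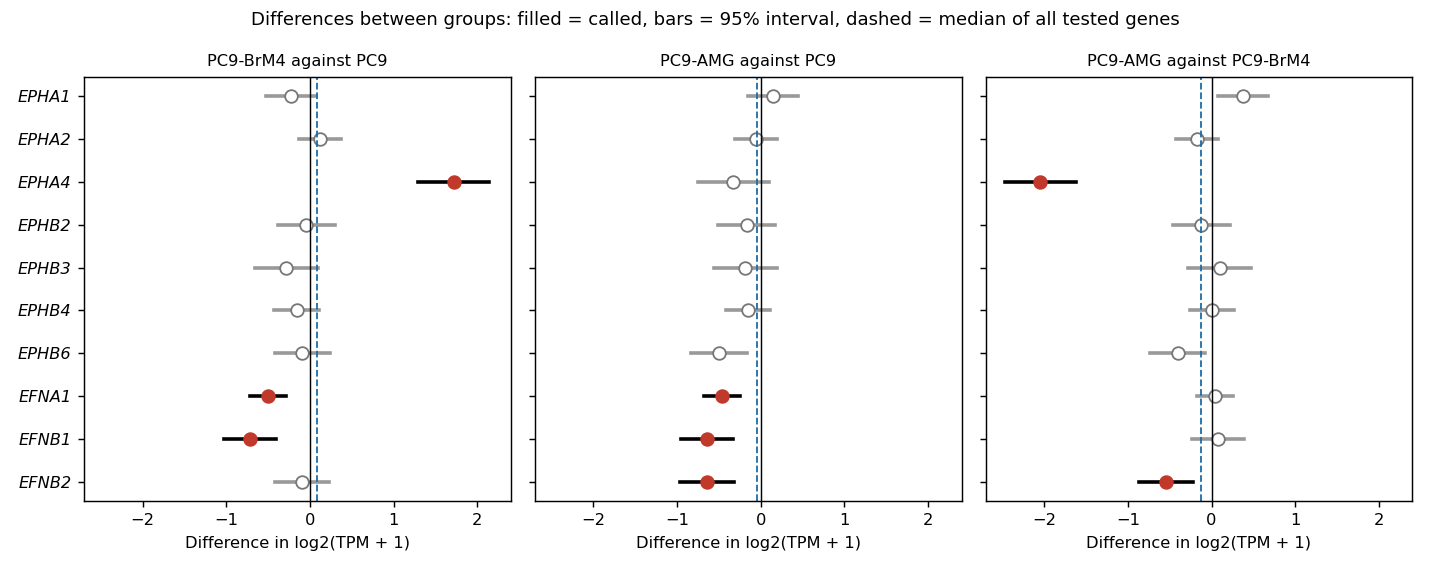
Difference in log2(TPM + 1) (x axis) of each gene (y axis) in the 3 comparisons, with 95% intervals from limma; filled points were called and the dashed line is the median of all tested genes. EPHA4 is at 1.72 in PC9-BrM4 against PC9 and at -2.04 in PC9-AMG against PC9-BrM4, and the other receptors are open points.

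EFNA1, on chromosome 1 (155127873 to 155134910, plus strand), encodes ephrin-A1, the main ligand of EphA2, and was the most abundant of the 22 genes of the family in every group. It had 71.7 and 75.2 TPM in PC9-AMG, 72.6 and 70.4 TPM in PC9-BrM4, and 104.5 and 98.9 TPM in PC9. All 4 derivative libraries were below both PC9 libraries, and the derivatives overlapped each other. EFNA1 fell in PC9-BrM4 (log2 difference -0.50, SE 0.10, adjusted p = 0.00751) and in PC9-AMG (-0.46, SE 0.10, adjusted p = 0.0235), lower in 2 of 2 libraries each. The difference between the derivatives was 0.04 (95% interval -0.18 to 0.25, adjusted p = 0.809). The call in PC9-BrM4 was lost without PC9 library 1 (adjusted p = 0.118) or library 2 (0.0672). That in PC9-AMG was lost without any 1 of the 4 libraries compared (adjusted p between 0.0682 and 0.255), with median centring (0.0529), with no filter (0.0508) and without the variance trend (0.0799).

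EFNB1, on the X chromosome (68828997 to 68842163, plus strand), encodes ephrin-B1, a ligand of EphB receptors whose loss causes craniofrontonasal syndrome. It had 24.997 and 20.4 TPM in PC9-AMG, 22.8 and 20.0 TPM in PC9-BrM4, and 34.4 and 37.1 TPM in PC9. As for EFNA1, both derivatives were below PC9 without overlap and overlapped each other. EFNB1 fell in PC9-BrM4 (log2 difference -0.72, SE 0.14, adjusted p = 0.00801) and in PC9-AMG (-0.64, SE 0.14, adjusted p = 0.0271). The derivatives differed by 0.08 (95% interval -0.23 to 0.39, adjusted p = 0.724). The call in PC9-BrM4 was lost without PC9-BrM4 library 2 (adjusted p = 0.0531) or PC9 library 2 (0.0855). In PC9-AMG it was lost without PC9-AMG library 2 (0.123), PC9 library 1 (0.148) or PC9 library 2 (0.225), with no filter (0.0826) and without the variance trend (0.0733).

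EFNB2, on chromosome 13 (106489731 to 106535040, minus strand), encodes ephrin-B2, the ligand of EphB4 that marks arteries and is also bound by EphA4. It had 11.8 and 12.7 TPM in PC9-AMG, 20.0 and 16.7 TPM in PC9-BrM4, and 20.7 and 18.6 TPM in PC9. Both PC9-AMG libraries were below the other 4, and the PC9-BrM4 and PC9 ranges overlapped. EFNB2 fell in PC9-AMG against PC9 (log2 difference -0.64, SE 0.14, adjusted p = 0.0302) and was lower there than in PC9-BrM4 (-0.55, SE 0.14, adjusted p = 0.0283), or by 0.41 relative to the median of all genes (-0.41). Between PC9-BrM4 and PC9 it was not called (-0.10, 95% interval -0.42 to 0.23, adjusted p = 0.697). The call against PC9 was lost without any 1 of the 4 libraries compared (adjusted p between 0.0982 and 0.263), with no filter (0.0826) and without the variance trend (0.0648). The call against PC9-BrM4 was lost in 9 of 17 alternatives, median centring (0.0710) and quantile normalization (0.0732) among them, and held without PC9-BrM4 library 2. None of the 5 endothelial markers, PECAM1 and CDH5 among them, passed the filter, and their summed level was 1.51 to 2.11 TPM over the 6 libraries.

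Of the other 12 genes of the family, 5 passed the filter: EFNA3, EFNA4, EFNA5, EFNB3 and the kinase-dead receptor EPHA10. EFNA4 lies beside EFNA1 and EFNA3 on chromosome 1 and had 22.9 and 22.7 TPM in PC9-AMG, 19.4 and 20.6 TPM in PC9-BrM4, and 25.5 and 30.4 TPM in PC9. It fell in PC9-BrM4 (log2 difference -0.46, SE 0.13, adjusted p = 0.0424), but no longer did so in any of the 6 fits without 1 library (adjusted p from 0.0550 to 0.412). EFNA3 had 15.1 and 12.9 TPM in PC9-AMG, 15.0 and 18.7 TPM in PC9-BrM4, and 15.8 and 13.3 TPM in PC9, where the groups overlapped. EFNA5 (mean 7.21, 9.38 and 9.71 TPM in PC9-AMG, PC9-BrM4 and PC9) and EPHA10 (3.96, 5.09 and 4.43 TPM) were not called in any comparison.

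EFNB3 had low coverage, at 0.680 and 0.394 reads per base in PC9 and 0.562 and 0.728 in PC9-BrM4. Coverage was 1.94 and 1.55 in PC9-AMG. In PC9-AMG, EFNB3 lay above both other groups without overlap, but this was not called. It had 2.36 and 2.07 TPM there, 0.884 and 1.20 TPM in PC9-BrM4, and 1.02 and 0.628 TPM in PC9, and was not called against PC9 (log2 difference 0.82, 95% interval 0.28 to 1.37, adjusted p = 0.0696) or PC9-BrM4 (0.66, adjusted p = 0.0875). The remaining 7 genes were below the filter. EFNA2 reached 1.20 TPM in 1 PC9 library, EPHA3, EPHA6, EPHA7 and EPHB1 stayed at or under 0.306 TPM, and EPHA5 and EPHA8 were listed at 0 in every library. EPHA6 and EPHA7 were listed at 0 in both PC9-BrM4 libraries and reached 0.266 and 0.306 TPM in PC9.

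**Figure D3:**
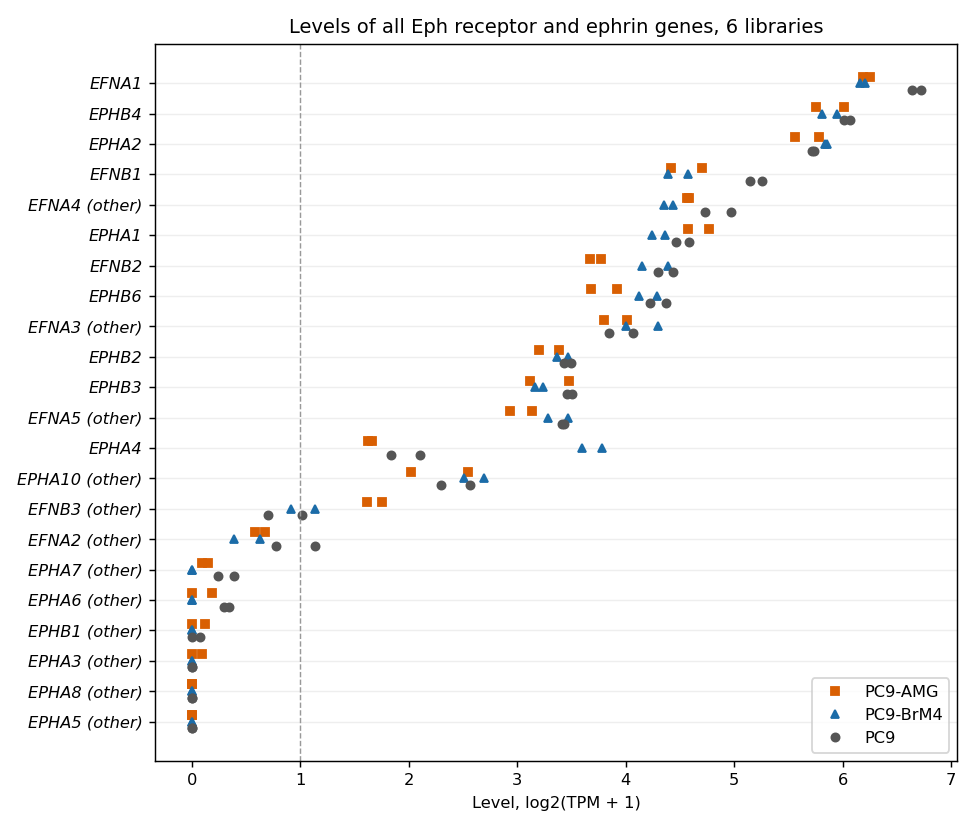
Level as log2(TPM + 1) (x axis) of all 22 Eph receptor and ephrin genes (y axis, by mean level) in the 6 libraries, with PC9-AMG as squares, PC9-BrM4 as triangles and PC9 as circles; the dashed line is 1 TPM. EFNA1 is at the top in every group and EPHA4 lies near the bottom of the expressed genes except in PC9-BrM4.

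Summed by class, ligand TPM in both derivatives lay under both PC9 libraries, and the sums of all receptors overlapped between each derivative and PC9. The 5 EFNA genes summed to 118.04 and 117.9 TPM in PC9-AMG, 117.4 and 119.0 TPM in PC9-BrM4, and 156.6 and 153.1 TPM in PC9. The 3 EFNB genes summed to 39.1 and 35.2 TPM in PC9-AMG, 43.6 and 38.0 TPM in PC9-BrM4, and 56.1 and 56.4 TPM in PC9. The 9 EPHA genes summed to 87.5 and 74.3 TPM in PC9-AMG, 93.9 and 90.5 TPM in PC9-BrM4, and 83.5 and 80.2 TPM in PC9. The 5 EPHB genes summed to 97.3 and 80.8 TPM in PC9-AMG, 97.8 and 88.6 TPM in PC9-BrM4, and 100.9 and 106.3 TPM in PC9. PC9-BrM4 was thus above PC9 in the EPHA sum and below it in the EPHB sum, without overlap. The 14 receptor genes summed to 184.8 and 155.1 TPM in PC9-AMG, 191.7 and 179.03 TPM in PC9-BrM4, and 184.3 and 186.5 TPM in PC9. The ratio of ligand to receptor TPM was 0.850 and 0.987 in PC9-AMG, 0.840 and 0.877 in PC9-BrM4, and 1.15 and 1.12 in PC9. EFNA1 alone held 44.9% to 49.2% of ligand TPM in the 6 libraries. The sums carry no test, and they contain the genes called above, so they are not separate evidence. From PC9 to PC9-BrM4 the mean EPHA sum went from 81.8 to 92.2 TPM, and EPHA4 within it from 2.93 to 11.9 TPM. The mean EFNA sum went from 154.9 to 118.2 TPM, and EFNA1 within it from 101.7 to 71.5 TPM.

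**Figure D4:**
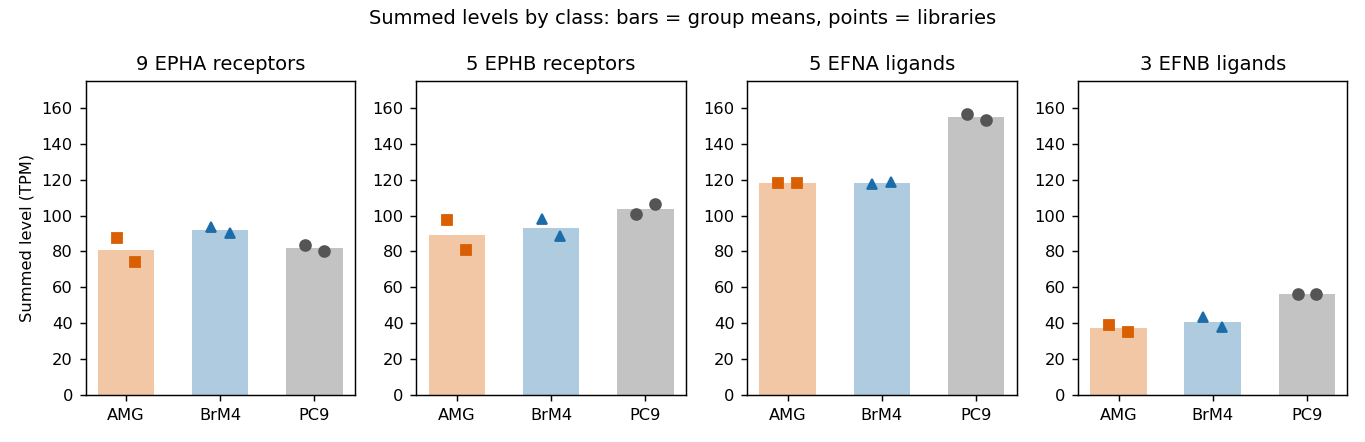
Summed level in TPM (y axis, from 0) of the EPHA, EPHB, EFNA and EFNB genes in PC9-AMG, PC9-BrM4 and PC9; bars are means of 2 libraries and points are libraries. The EFNA sum is between 117.4 and 119.0 TPM in the derivatives, against 153.1 and 156.6 TPM in PC9.

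The libraries of a derivative differed in 1 direction for most of the 10 genes. In PC9-AMG, 7 of 10 were higher in library 1 than in library 2, as were 55.4% of all tested genes. In PC9-BrM4, 9 of 10 were higher in library 1 (66.9% of all tested genes), and in PC9 4 of 10 (51.7%). The part of this in the differences between groups was not tested beyond the fits without each library.

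Values that do not overlap between groups were common. In PC9-BrM4 against PC9, 7 of the 10 genes did not overlap, 2 higher and 5 lower, against 61.2% of all tested genes (39.2% higher and 21.9% lower). In PC9-AMG against PC9, 6 of 10 did not overlap, 0 higher and 6 lower, against 59.8% (24.8% higher and 35% lower). In PC9-AMG against PC9-BrM4, 5 of 10 did not overlap, 1 higher and 4 lower, against 59.5% (19% higher and 40.5% lower). The median log2 difference of the 10 genes was -0.13 in PC9-BrM4 against PC9 (all tested genes 0.09), -0.26 in PC9-AMG against PC9 (-0.05) and -0.06 in PC9-AMG against PC9-BrM4 (-0.13).

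EPHA1, EPHB4 and EPHB6 all lie on chromosome 7, among genes whose medians in PC9-BrM4 against PC9 were below that of all tested genes (0.09). The 50 tested genes nearest to each (25 on either side) had a median log2 difference between PC9-BrM4 and PC9 of -0.18 around EPHA1, -0.12 around EPHB4 and -0.19 around EPHB6. The genes themselves were at -0.22, -0.16 and -0.09, and none was called. The stretches around EPHA1 and EPHB6 overlap, so they share neighbours. Of the 50 neighbours of EPHB4, 1 was called higher and 12 lower (9.89% and 6.45% of all tested genes). Around EPHA1 2 were higher and 3 lower, and around EPHB6 2 and 4. In PC9-AMG against PC9-BrM4 the neighbours of EPHB4 were at 0.17 (all tested genes -0.13), with 9 higher and 3 lower (6.31% and 12.3%). There, 2 were higher and 2 lower around EPHA1, and 3 and 2 around EPHB6. Around EPHA4 the neighbours were at 0.09, the median of all genes, while EPHA4 was at 1.72. Of these 50 neighbours, 11 were called higher and 3 lower (9.89% and 6.45% of all tested genes). In PC9-AMG against PC9-BrM4, 2 of them were higher and 10 lower (6.31% and 12.3%). The neighbours of EFNA1 were at 0.13 in PC9-BrM4 and 0.04 in PC9-AMG against PC9, against -0.50 and -0.46 for the gene. Those of EFNB1 were at -0.02 and -0.16, against -0.72 and -0.64 for the gene. The neighbours of EFNB2 were at -0.11 in PC9-AMG against PC9, where the gene was at -0.64. In PC9-AMG against PC9-BrM4 they were at -0.24 and EFNB2 at -0.55. There, 1 of the 50 neighbours was called higher and 12 lower (6.31% and 12.3% of all tested genes).

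**Figure D5:**
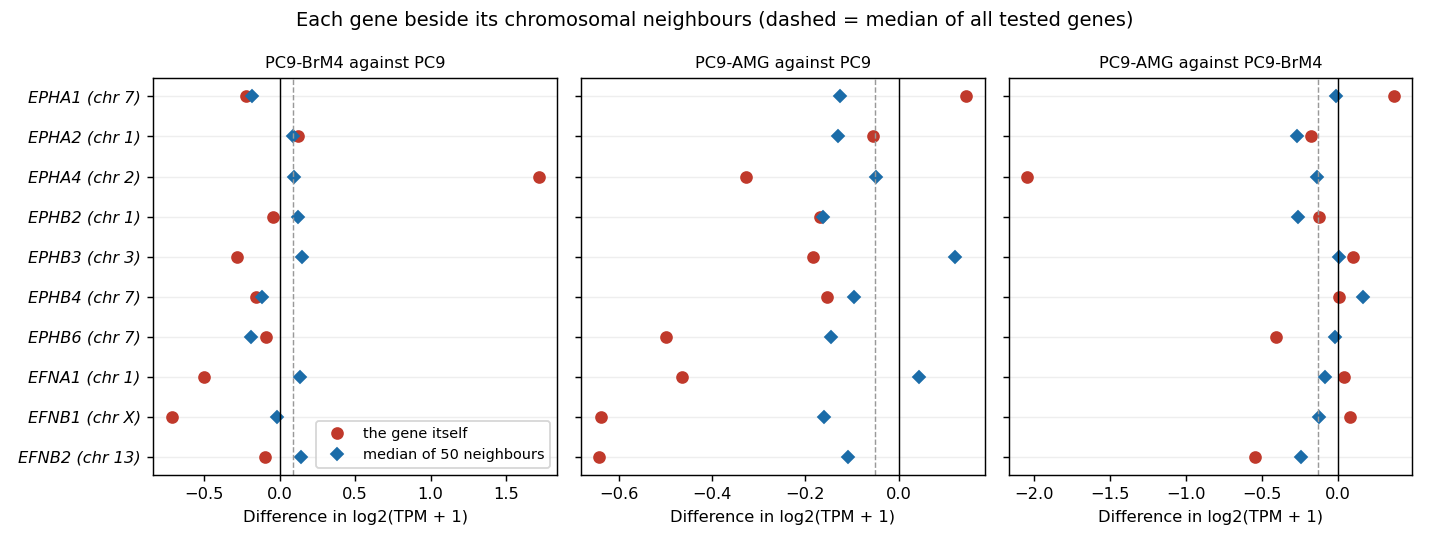
Difference in log2(TPM + 1) (x axis) of each gene (circles) and the median of its 50 nearest tested genes on the chromosome (diamonds) in the 3 comparisons; the dashed line is the median of all tested genes. EPHA4, EFNA1, EFNB1 and EFNB2 lie away from their neighbours where they were called, EFNB2 less far in PC9-AMG against PC9-BrM4 (-0.55, neighbours -0.24). EPHA1 and EPHB4 lie beside theirs in PC9-BrM4 against PC9.

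Genes that act inside the receptor cell were taken from a list of 45 kinases, adaptors, exchange factors and phosphatases, of which 42 were tested. In PC9-BrM4 against PC9, 3 rose and 2 fell (9.89% and 6.45% of all tested genes), with a list median of 0.11 against 0.09 for all genes. VAV2, an exchange factor that Eph receptors recruit for Rac, rose, with 51.2 and 45.8 TPM in PC9-BrM4 against 28.6 and 28.03 TPM in PC9 (log2 difference 0.76, SE 0.13, adjusted p = 0.00392). The adaptor gene GRB7 fell, with 26.4 and 27.8 TPM against 48.3 and 43.6 TPM in PC9 (-0.74, adjusted p = 0.00242). NCK2, an adaptor between ephrins or Eph receptors and the actin cytoskeleton, rose by 0.53 (adjusted p = 0.0137), a call lost without any 1 of the 4 libraries compared (adjusted p between 0.0614 and 0.143). VAV3 rose by 0.88 from a low level, 1.95 and 1.62 TPM in PC9-BrM4 against 0.450 and 0.568 TPM in PC9 (adjusted p = 0.0373), and was not called without any 1 of these 4 libraries or with median centring or a pseudocount of 0.1 TPM (adjusted p between 0.0584 and 0.173).

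In PC9-AMG against PC9, 0 of the 42 rose and 1 fell (3.67% and 3.82% of all tested genes), with a list median of -0.10 against -0.05 for all genes. The gene that fell was NGEF, which encodes the Eph-activated exchange factor ephexin, with 51.8 and 52.6 TPM in PC9-AMG against 68.4 and 69.8 TPM in PC9 (log2 difference -0.40, adjusted p = 0.0397). This call was lost in 9 of 17 alternatives, the replicate number as a block among them (adjusted p = 0.0504). In PC9-AMG against PC9-BrM4, 0 were higher and 5 lower (6.31% and 12.3% of all tested genes), with a list median of -0.20 against -0.13 for all genes. VAV2 was lower by 0.69 (log2 difference -0.69, adjusted p = 0.00589) and NCK2 by 0.65 (-0.65, adjusted p = 0.00518). The Rac exchange factor TIAM1 (-0.75, adjusted p = 0.0201) and the scaffold ITSN1 (-0.56, adjusted p = 0.0161) were lower as well. Leaving out PC9-BrM4 library 1 ended the calls of VAV2, TIAM1 and ITSN1 (adjusted p = 0.0608, 0.116 and 0.0862), and leaving out PC9-AMG library 2 also ended those of TIAM1 and ITSN1 (0.111 and 0.0757). TIAM1 was not called without PC9-AMG library 1 (0.0581) or with no filter (0.0641) either.

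The list of proteases that cleave ephrins or Eph receptors and of proteins in ephrin reverse signalling held 19 genes, all tested. In PC9-BrM4 against PC9, 2 rose and 2 fell (9.89% and 6.45% of all tested genes). The list median was 0.03 and that of all genes 0.09. The polarity gene PARD6A rose, with 10.8 and 13.1 TPM against 4.85 and 4.72 TPM in PC9 (log2 difference 1.16, SE 0.16, adjusted p = 0.00137). The membrane protease gene MMP14, whose product cleaves EphA2, had 27.9 and 26.4 TPM against 35.9 and 37.4 TPM in PC9 (-0.42, adjusted p = 0.0496), a call lost in 9 of 17 alternatives. GRIP1, a PDZ protein that binds ephrin-B, fell by 0.73 and MLLT4 (afadin) rose by 0.45 (adjusted p = 0.0406 and 0.0455). These calls were lost in 8 of 16 and 11 of 17 alternatives.

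In PC9-AMG against PC9, 1 of the 19 rose and 1 fell (3.67% and 3.82% of all tested genes). The list median was -0.13 and that of all genes -0.05. PARD6A rose to 8.45 and 9.10 TPM (log2 difference 0.76, adjusted p = 0.0262) and MMP14 fell to 25.3 and 21.3 TPM (-0.64, adjusted p = 0.0198), against the PC9 levels above. Both calls were lost without PC9 library 1 or 2 (adjusted p between 0.142 and 0.183), without PC9-AMG library 2 (0.123 and 0.0906) and with no filter (0.0807 and 0.0639). PARD6A also lost its call without PC9-AMG library 1 (0.0815), and MMP14 without the variance trend (0.0594). In PC9-AMG against PC9-BrM4, 0 were higher and 5 lower (6.31% and 12.3% of all tested genes). The list median was -0.06 and that of all genes -0.13. ADAM10, a sheddase of ephrin-A ligands, had 85.4 and 93.4 TPM in PC9-AMG against 153.02 and 120.6 TPM in PC9-BrM4 (-0.60, adjusted p = 0.00886), a call lost without PC9-AMG library 1 (0.0604) or PC9-BrM4 library 1 (0.0651). ADAM19, APH1B and MLLT4 were lower by 0.71, 0.66 and 0.58 (log2 differences -0.71, -0.66 and -0.58; adjusted p = 0.0326, 0.0283 and 0.0159), and these calls were lost in 9, 9 and 5 of 17 alternatives.

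For the 3 genes whose group means lay farthest apart, the genes with the most similar profile were taken from 10631 genes with a mean of at least 5 TPM. Likeness was the root mean square difference between profiles of log2(TPM + 1) over the 6 libraries, each centred on its own mean. Nearest to EPHA4 were HTRA1, a secreted serine protease gene (0.17), SYTL4 (0.17) and RARRES1 (0.18). HTRA1 had 6.99 and 8.60 TPM in PC9-AMG, 28.9 and 27.2 TPM in PC9-BrM4, and 9.26 and 9.54 TPM in PC9. Nearest to EFNB1 were the repressor gene BCL6 (0.04), ALDH3B1 (0.07) and SHROOM1 (0.08). BCL6 had 29.6 and 25.001 TPM in PC9-AMG, 27.9 and 25.1 TPM in PC9-BrM4, and 41.9 and 47.6 TPM in PC9. Nearest to EFNB2 were OSBPL1A, the oxygen-sensor gene EGLN1 and SH3BGRL (0.03, 0.03 and 0.04).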

How the data were processed

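Per the labels, total RNA was extracted with TRIzol and made into TruSeq Stranded mRNA libraries. Per the submitters' processing notes, HISAT2 2.1.0, StringTie 1.3.4d and build hg38 were used; the annotation, filters and strand setting are not given in the sources used here. TPM and FPKM were computed by the authors and deposited per library; per the file headers, Coverage is a gene's per-base read coverage, a signal not scaled to depth. The authors' TPM table over all libraries equals the library tables within 0.001 TPM for all 10 genes.

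TPM of repeated gene IDs was summed. limma 3.58.1 (R 4.3.3) was run on log2(TPM + 1) with group means as coefficients and all 6 libraries in the model. A gene entered it if 2 or more libraries reached 1 TPM. The fit used empirical Bayes with a variance trend, two-sided, Benjamini-Hochberg adjustment over 14627 genes. The fit was tested on simulated data. All 10 genes were named; of the signalling lists, up to 4 called genes per comparison with the largest differences. The 10 genes and the lists were chosen with earlier results of these data known. The alternatives were median centring, quantile normalization, FPKM, the table over all libraries, pseudocounts of 0.1 and 0.5 TPM, no filter, a filter at 5 TPM, no trend, the 4 libraries compared only, the replicate number as a block, and leaving out each library. Their use on named genes outside the 10 was added after seeing the data.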

Additional observations from a re-analysis of the deposited data

How the results depend on the processing

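EPHA4 kept its direction and its call in all 17 alternatives in PC9-BrM4 against PC9 (log2 difference 1.40 to 1.99) and in PC9-AMG against PC9-BrM4 (-2.43 to -1.61). The ephrin calls kept their direction in all 17, but with 2 libraries a group their calls often rested on single libraries. In PC9-AMG against PC9, no filter left 250 called genes and 0 of the 10 Eph and ephrin genes, and moderation without the trend 325 and 0. In PC9-AMG against PC9-BrM4, no filter gave 1799 and 1 of the 10, and a fit of only the 4 libraries compared 1 of the 10. Leaving out a library gave 892 to 2383 called genes and 1 to 3 of the 10 in PC9-BrM4 against PC9, 131 to 1152 and 0 to 3 in PC9-AMG against PC9, and 1024 to 2886 and 1 to 2 in PC9-AMG against PC9-BrM4. The cause was not tested.

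Median centring moved the split of called genes from 1446 higher and 943 lower to 917 and 1293 in PC9-BrM4 against PC9, from 537 and 559 to 685 and 436 in PC9-AMG against PC9, and from 923 and 1797 to 1606 and 900 in PC9-AMG against PC9-BrM4. Quantile normalization gave 1088 and 1253, 671 and 561, and 1326 and 1137. FPKM gave 1233 and 1067, 779 and 490, and 1274 and 1210.

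Differences near 0 changed sign without being called. Over the fits without 1 library, EPHB2 ran from -0.0954 to 0.0055 and EFNB2 from -0.2178 to 0.0245 in PC9-BrM4 against PC9, and EPHA2 from -0.1701 to 0.0593 in PC9-AMG against PC9. In PC9-AMG against PC9-BrM4, EPHB3 ran from -0.0828 to 0.2788, EPHB4 from -0.1222 to 0.1352 and EFNB1 from -0.0622 to 0.218. EPHA2 in PC9-AMG against PC9 was at 0.0141 with median centring and 0.0097 with FPKM, and EPHB2 in PC9-AMG against PC9-BrM4 at 0.0487 with median centring and 0.0476 with quantile normalization. The labels do not state whether the replicate numbers pair the libraries. The differences between library 1 and library 2 correlated across genes at 0.0027, -0.0388 and 0.0292 between groups. Such low values cannot exclude a pairing, since paired libraries may share little shift. With the replicate number as a block, 2483, 1298 and 2905 genes were called, and 3, 3 and 2 of the 10 genes.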
